A study of Mus musculus with 128 samples.

Results

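Sucrose is a disaccharide made of 1 glucose and 1 fructose unit. The comparison asked whether liver RNA 3 h after mice were offered a sucrose drink lay at the midpoint between the glucose and the fructose drink, or departed from it. It used 30 liver libraries and left out the other 98 of the series: 10 sucrose, 10 glucose and 10 fructose libraries, chosen by the labelled drink and time. The midpoint of a gene was the mean of its glucose and fructose group means on the log scale, and the difference of sucrose from it was averaged over both strains.

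The mice were wild type males of 8 weeks from 2 inbred strains, C57BL6/J and BALB/c, and each strain and drink had 5 libraries. All were on regular chow, had been trained for 1 week to eat in an evening window, and were fasted for 21 h, with drinking water withheld for the last 3 h. Chow was then returned together with water or with 20% glucose, sucrose or fructose in water. Every sugar group therefore ate chow as well, and the amounts eaten and drunk are not given in the sources used here. Water groups of 5 libraries per strain at 3 h served as the background, and livers taken at 6 h and 12 h gave the same comparison later.

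Sucrose is cleaved in the small intestine, and both products reach the liver through the portal vein. Fructose is phosphorylated there by ketohexokinase, a route that bypasses the early regulated step of glycolysis. Carbohydrate metabolites activate ChREBP (gene Mlxipl), a transcription factor of glycolytic and lipogenic genes, and also of G6pc in liver. Glucose raises insulin, which represses gluconeogenic genes, while fructose itself is a weak stimulus of insulin release.

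The 30 libraries held 19840501 to 30854950 counts each, and levels are given as CPM, counts scaled to a common library size. The 10 hepatocyte markers summed to 65565 to 141721 CPM in them. All 30 libraries lay nearest their own strain, but by a profile of 500 genes that differ with time only 24 were nearest the 3 h group, and 6 were nearer another time. Marker sums of other tissues varied widely, from 12.5 to 132 CPM for exocrine pancreas and from 0.757 to 449 CPM for skeletal muscle. BALB/c sucrose replicate 5 had 1146 CPM of Xist, the RNA that silences an X chromosome in females, against at most 1.59 in the other 29 libraries. Its Y-linked Ddx3y level was 74.5 CPM, inside the range of 49.3 to 78.2 over the rest. C57BL6/J glucose replicate 1 stood apart by stress and inflammation genes described further on. The sources do not state outright that each library is a separate mouse, so the tests rest on the spread among these libraries, which may be technical in part. In bulk liver, fewer cells of a type and less RNA per cell cannot be told apart.

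No gene was called between sucrose and the glucose-fructose midpoint at 3 h. By edgeR's quasi-likelihood test, 0 of 16886 genes (0%) passed a Benjamini-Hochberg adjusted p of 0.05, and 631 (3.74%) had an unadjusted p under 0.05, 290 of them higher and 341 lower. DESeq2, run as an alternative, called 3, at extreme log2 differences of 9.37 for Hsd3b1, -8.21 for Krt78 and 9.95 for Nefl. Hsd3b1 is on the list of adrenal cortex markers, whose sum was highest in BALB/c sucrose replicate 5, at 18.1 CPM. The 95% interval of the difference lay inside a 1.5-fold change in either direction for 10487 genes (62.1%), and for 7212 of the 7777 genes with a mean of at least 10 CPM (92.7%). For 5 of the 7777 no interval was obtained, and for the others a departure of 1.5-fold remained inside it.

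Sucrose was also compared with each sugar separately. Between sucrose and glucose 36 genes (0.213%) were called by edgeR, 15 higher and 21 lower with sucrose. Between sucrose and fructose 0 genes (0%) were called, with 511 (3.03%) at an unadjusted p under 0.05 and 7 called by DESeq2. Fructose and glucose differed in 396 genes (2.35%), 182 higher and 214 lower with fructose. Adjusted jointly over the 3 pairs, edgeR's p-values called 58 genes for sucrose against glucose, 12 for sucrose against fructose and 216 for fructose against glucose. The counts depend on single replicate numbers: the 36 calls became 0 without replicate 5 of every group and 6 without replicate 3, and the 396 became 102 without replicate 4. These pairs share libraries, and a count for one pair is no test of its difference from another. Against water at 3 h, 32 genes (0.19%) were called for glucose, 493 (2.92%) for sucrose and 1133 (6.71%) for fructose.

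The 396 genes called between fructose and glucose give a scale on which a sucrose library can be read. For each library the mean log2 CPM of the 214 genes lower with fructose was subtracted from that of the 182 genes higher with it. The score was then set to 0 at the glucose mean and to 1 at the fructose mean of the same strain. The glucose and fructose libraries chose these genes, so their own separation is fixed, while the sucrose libraries took no part in the choice beyond the estimate of spread that all groups share. The 5 C57BL6/J sucrose libraries lay at 0.481, 0.609, 0.654, 0.689 and 0.743, and the 5 BALB/c sucrose libraries at 0.549, 0.584, 0.607, 0.7098 and 0.756. The mean was 0.638 ± 0.0883 (SD, n = 10), and 9 of the 10 lay on the fructose side of 0.5. Water libraries, which also took no part, lay near glucose, at 0.0748 ± 0.0566 (SD, n = 5) in C57BL6/J and 0.0773 ± 0.0369 (SD, n = 5) in BALB/c.

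**Figure D1:**
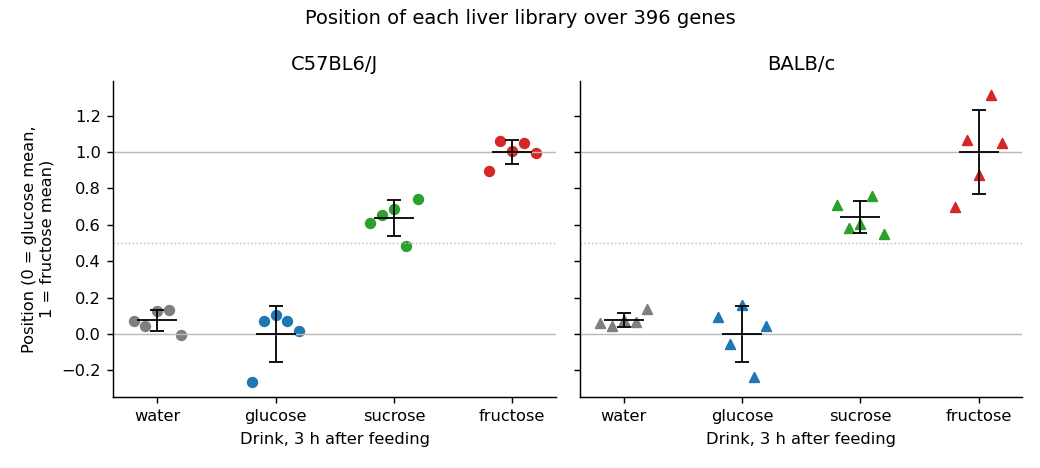
Position of every 3 h library over the 396 genes, with glucose at 0 and fructose at 1 in each strain; points are libraries, bars the mean and SD of 5. Sucrose libraries sit between 0.481 and 0.756, and the dotted line marks 0.5.

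The sucrose libraries did not overlap the glucose libraries on this scale in either strain. In C57BL6/J all 5 were also below the lowest fructose library, at 0.894, whereas in BALB/c the lowest fructose library, at 0.697, lay below 2 sucrose libraries. When the 213 genes called in C57BL6/J alone were read in BALB/c, sucrose lay at 0.731 ± 0.183 (SD, n = 5). The BALB/c libraries had no part in choosing these genes beyond the estimate of spread that all groups share. C57BL6/J glucose replicate 1, which stood apart by stress and inflammation genes, was among the libraries that chose them. The BALB/c glucose libraries then ranged from -0.507 to 0.426 and the fructose libraries from 0.790 to 1.19. Gene by gene, the mean with sucrose lay between the means of both sugars for 372 of the 396 genes, beyond the fructose mean for 21 and beyond the glucose mean for 3. These genes were chosen for a wide gap between fructose and glucose, so a mean inside that gap is partly fixed by the choice. The sucrose mean was nearer fructose for 305 genes and nearer glucose for 91, with a median position of 0.661 and quartiles of 0.521 and 0.790. On the linear CPM scale the median was 0.657.

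G6pc, the catalytic subunit of glucose-6-phosphatase, which releases free glucose from the liver, was higher with sucrose than with glucose. In C57BL6/J its levels were 37.0, 46.0, 48.3, 114 and 146 CPM with glucose, 151, 164, 198, 211 and 257 with sucrose and 187, 286, 449, 502 and 607 with fructose. In BALB/c they were 48.0, 71.5, 84.9, 86.8 and 249.6 with glucose, 277, 285, 286, 291 and 530.5 with sucrose and 351.5, 356, 407, 438 and 447 with fructose. Every sucrose library lay above every glucose library of its strain, and sucrose overlapped fructose in both strains. The log2 difference of sucrose from glucose was 1.47 ± 0.29 (SE, n = 10 and 10), with an adjusted p of 0.0094 by edgeR, and fructose exceeded glucose by 2.13 ± 0.29, with an adjusted p of 9.12e-07. The call of sucrose against glucose was lost without replicate 4, without replicate 5, without the 6 libraries nearer another time and without the libraries whose names end in a letter a, with log2 differences of 1.28 to 1.49. Against water the log2 differences were -0.51 for glucose, 0.96 for sucrose and 1.62 for fructose. Sucrose lay 0.41 ± 0.25 above the midpoint in log2 (95% interval -0.09 to 0.90).

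Pck1 encodes phosphoenolpyruvate carboxykinase, an early enzyme of gluconeogenesis, and its sucrose levels lay nearer glucose. In C57BL6/J it had 36.2, 63.9, 91.8, 121 and 739 CPM with glucose, 72.6, 81.5, 215, 433 and 573 with sucrose and 396, 507, 618, 642 and 1448 with fructose. In BALB/c it had 49.5, 81.4, 127.9, 132 and 461 CPM with glucose, 149, 155, 178, 361 and 687 with sucrose and 373, 557, 612, 1235 and 1936 with fructose. All neighbouring groups overlapped. Fructose exceeded glucose by 2.12 ± 0.45 in log2, with an adjusted p of 0.00359 by edgeR, a call lost without replicate 4 (1.71), without the 6 libraries nearer another time (1.53) and without the libraries whose names end in a letter a (1.98). Sucrose against glucose (0.62 ± 0.45, adjusted p 0.687) and against fructose (-1.51 ± 0.45, adjusted p 0.796) did not pass edgeR's test, although all 10 sucrose libraries were below the fructose mean of their strain. The highest C57BL6/J glucose value belonged to replicate 1, and without that library the difference from glucose was 1.33 and that from the midpoint moved from -0.45 to -0.09.

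The promoters of G6pc and Pck1 are shown because both genes moved with fructose and textbook regulation places forkhead and cyclic AMP response elements near their starts. The sequences are RefSeq's for GRCm38.p6, on the plus strand of chr11:101367466-101367560 and chr2:173152823-173153047, and end before the gene's start in the deposited table. Capitals mark a forkhead motif (TGTTTTG) in G6pc and a cyclic AMP response element (TACGTCA) in Pck1, both searched on both strands of the 250 bases before the RefSeq start.
G6pc: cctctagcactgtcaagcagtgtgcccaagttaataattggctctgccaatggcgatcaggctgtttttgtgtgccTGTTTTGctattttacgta
Pck1: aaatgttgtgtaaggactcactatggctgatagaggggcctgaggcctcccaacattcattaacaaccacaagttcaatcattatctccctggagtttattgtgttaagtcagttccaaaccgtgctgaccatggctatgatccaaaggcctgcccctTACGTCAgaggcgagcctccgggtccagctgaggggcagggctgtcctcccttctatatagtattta
Of 32851 RefSeq promoters of this length, 5.56% held TGTTTTG and 1.08% TACGTCA. A match is a description of letters and was not tested for binding.

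Beta-actin (Actb), a cytoskeleton gene often used as a reference, was lower with both sucrose and fructose than with glucose. It and the next 3 genes were chosen after their values were seen, among those called between sucrose and glucose. Actb had 999, 1031, 1088, 1199 and 1244 CPM with glucose, 592, 646, 662, 797 and 817 with sucrose and 592, 651, 661, 671 and 754 with fructose in C57BL6/J. In BALB/c it had 879, 935, 1106, 1219.8 and 1585 CPM with glucose, 643, 718, 755, 817 and 818 with sucrose and 674, 751, 805, 875 and 1058 with fructose. No sucrose library overlapped a glucose library of its strain, while sucrose and fructose overlapped throughout. The log2 difference of sucrose was -0.64 ± 0.13 from glucose (adjusted p 0.0141 by edgeR), -0.04 ± 0.13 from fructose and -0.34 ± 0.12 from the midpoint (unadjusted p 0.00533, adjusted p 0.952 by edgeR). The call against glucose was lost without replicate 3, 4 or 5. Against water Actb fell by 0.68 on the log2 scale with sucrose and by 0.64 with fructose, with edgeR adjusted p of 0.000579 and 0.00058, and the value for glucose was -0.04. Gamma-actin (Actg1), its close paralog, was at -1.06 ± 0.27 with sucrose against glucose (adjusted p 0.0694 by edgeR) and at -1.56 ± 0.27 with fructose (adjusted p 0.00025).

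Fbxl20, an F-box protein of ubiquitin ligases, had the smallest p between sucrose and glucose. Its C57BL6/J levels ran from 8.25 to 11.8 CPM with glucose, from 15.8 to 23.5 with sucrose and from 19.6 to 31.6 with fructose. In BALB/c they ran from 5.72 to 12.7 CPM, from 14.5 to 16.9 and from 15.4 to 32.6. Sucrose and glucose did not overlap in either strain, and the log2 difference was 0.82 ± 0.15, with an adjusted p of 0.00249 by edgeR, lost only without replicate 5 among the alternatives run (0.72). It lay 0.24 ± 0.13 from the midpoint. Ulk1, the kinase that starts autophagy, ran from 30.8 to 80.2 CPM with glucose, from 67.7 to 126 with sucrose and from 52.5 to 178 with fructose in C57BL6/J. It ran from 28.7 to 47.4 CPM, from 57.2 to 118 and from 55.9 to 97.6 in BALB/c, where glucose and sucrose did not overlap. Its log2 difference was 0.82 ± 0.18 from glucose (adjusted p 0.0189 by edgeR) and 0.32 ± 0.16 from the midpoint, and the call was lost without replicate 3, 4 or 5 and without the 6 libraries nearer another time (0.76 to 0.81). Wnt5b, a secreted Wnt ligand, ran the opposite way. It ran from 17.8 to 29.1 CPM with glucose and from 10.6 to 14.6 with sucrose in C57BL6/J, and from 5.90 to 17.8 and from 5.91 to 8.32 in BALB/c. Its log2 difference from glucose was -0.75 ± 0.14, with an adjusted p of 0.0094 by edgeR, lost without replicate 5 (-0.66), without the 6 libraries nearer another time (-0.71) and without the libraries whose names end in a letter a (-0.80).

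**Figure D2:**
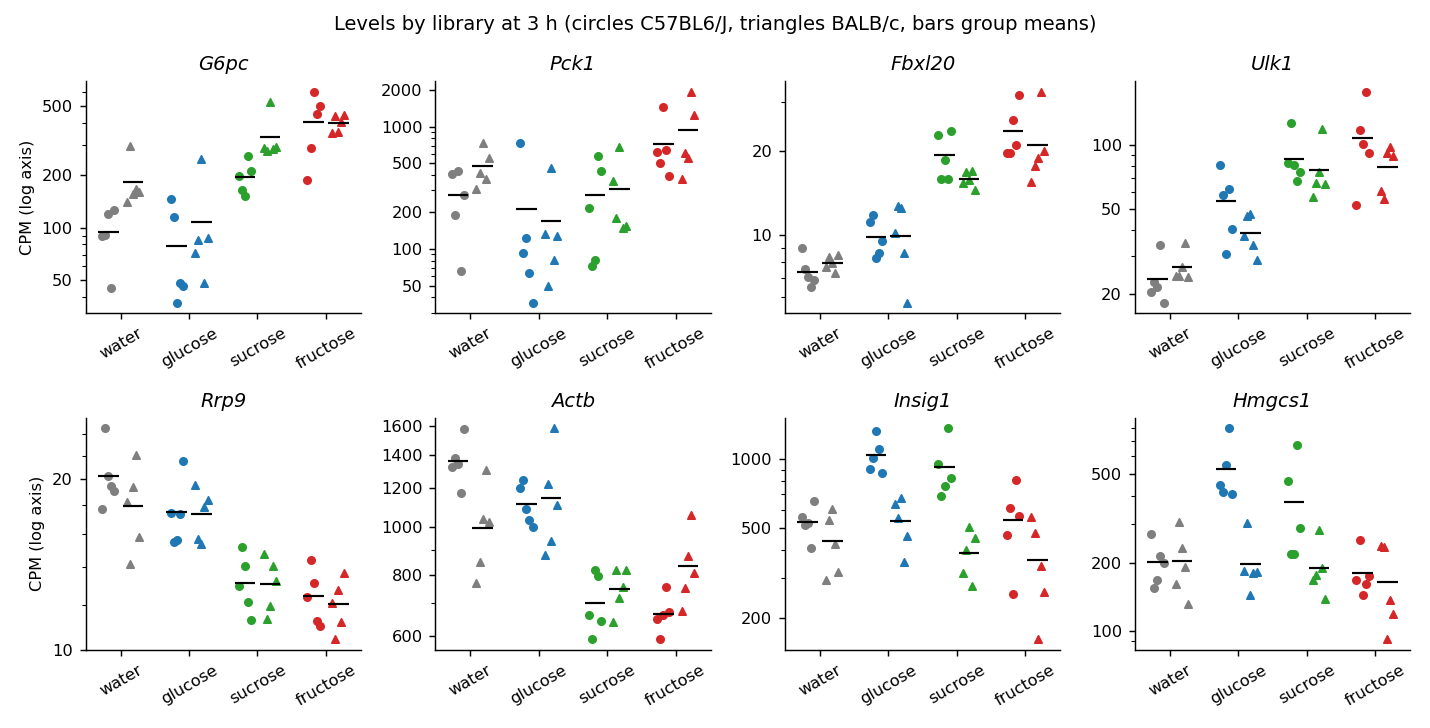
CPM on a log axis for 8 genes at 3 h; circles are C57BL6/J and triangles BALB/c libraries, and bars are group means. Sucrose levels of G6pc, Fbxl20, Ulk1, Rrp9 and Actb stand apart from glucose or nearly so, whereas those of Pck1, Insig1 and Hmgcs1 spread over the range of both sugars.

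Genes of cholesterol synthesis showed another arrangement. Of 25 tested members of the list of cholesterol synthesis and SREBP2 targets, 6 were lower with fructose than with glucose and 0 higher, against 1.27% and 1.08% of all genes. Their median log2 difference was -0.50, against -0.0027 over all genes. The 6 were Mvk, Pmvk, Mvd, Lss, Hmgcs1 and Insig1, and without the 6 libraries nearer another time 0 of the 25 were called. The call of Hmgcs1 was lost without any 1 of the 5 replicate numbers (-1.02 to -0.77) and that of Insig1 without replicate 1, 2, 3 or 5 (-0.84 to -0.48), and both with no filter on low counts and without the libraries whose names end in a letter a. Sucrose was called for 0 members against glucose, and its median difference from the midpoint was 0.02.

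Hmgcs1, the cytosolic synthase that commits acetyl groups to the mevalonate pathway, had 407, 416, 448, 546 and 797 CPM with glucose, 219, 220.1, 287, 464 and 674 with sucrose and 145, 161, 168, 176 and 254 with fructose in C57BL6/J. In BALB/c it had 145, 181, 183, 186 and 301 CPM with glucose, 138, 168, 177, 191 and 281 with sucrose and 91.9, 119, 137, 237 and 238 with fructose. In C57BL6/J glucose and fructose did not overlap and sucrose reached into both, while in BALB/c all groups overlapped. Sucrose lay 0.18 ± 0.22 from the midpoint in log2 (95% interval -0.25 to 0.61). Insig1, which holds the SREBP precursor in the endoplasmic reticulum and is itself an SREBP target, had 865 to 1323 CPM with glucose, 688 to 1366 with sucrose and 256 to 808 with fructose in C57BL6/J. In BALB/c the ranges were 355 to 672, 276 to 501 and 162 to 557 CPM. Fructose was at -0.76 ± 0.22 from glucose (adjusted p 0.0392 by edgeR) and sucrose at 0.06 ± 0.19 from the midpoint. Mevalonate kinase (Mvk) was at -0.83 ± 0.19 with fructose against glucose (adjusted p 0.00459 by edgeR) and at -0.72 ± 0.19 with sucrose (adjusted p 0.0747). Lanosterol synthase (Lss) was at -0.88 ± 0.21 with fructose (adjusted p 0.00687 by edgeR) and at -0.44 ± 0.21 with sucrose, which is 0.00 ± 0.18 from the midpoint.

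The promoters of Insig1 and Hmgcs1 are shown as the matching set for the genes lower with fructose. Both are RefSeq's for GRCm38.p6 on the plus strand, at chr5:28071162-28071362 and chr13:119690101-119690350. Capitals mark the cyclic AMP response element (TACGTCA) in both, an E-box (CACGTG) in Insig1 and a sterol element (TCACNCCAC) in Hmgcs1.
Insig1: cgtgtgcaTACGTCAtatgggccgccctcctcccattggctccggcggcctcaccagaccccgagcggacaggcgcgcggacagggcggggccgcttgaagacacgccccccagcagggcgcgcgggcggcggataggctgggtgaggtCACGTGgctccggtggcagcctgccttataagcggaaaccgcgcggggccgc
Hmgcs1: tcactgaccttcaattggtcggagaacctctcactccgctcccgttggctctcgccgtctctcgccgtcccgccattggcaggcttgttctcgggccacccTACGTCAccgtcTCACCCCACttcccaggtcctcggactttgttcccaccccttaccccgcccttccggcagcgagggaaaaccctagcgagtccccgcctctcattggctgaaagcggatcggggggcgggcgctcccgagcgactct
Of the 32851 promoters, 6.02% held CACGTG and 1.05% held TCACNCCAC. The same TACGTCA stands in Pck1, higher with fructose, and in these genes, lower with it.

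A panel of 28 genes of sugar and lipid metabolism lay mostly a little above the midpoint. None of the 28 was called against the midpoint, where the share over all genes was 0%, and 1 had an unadjusted p under 0.05. The difference was above 0 for 23 and below for 5, against 8487 of 16886 genes above 0, and the sucrose mean was above both sugars for 16 genes, below both for 3 and between them for 9. Over all genes these shares were 31.4%, 31.2% and 37.4%. The panel was chosen with earlier results of these data known. Its genes can move together, so the 28 signs are not independent. The 95% interval lay inside a 1.5-fold change for 10 genes and inside a 2-fold change for 21, beside 62.1% and 80.5% of all genes. Against water, edgeR called 6 of the 28 for glucose, 14 for sucrose, all higher, and 10 for fructose, beside 0.19%, 2.92% and 6.71% of all genes. Those comparisons share the water libraries.

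**Figure D3:**
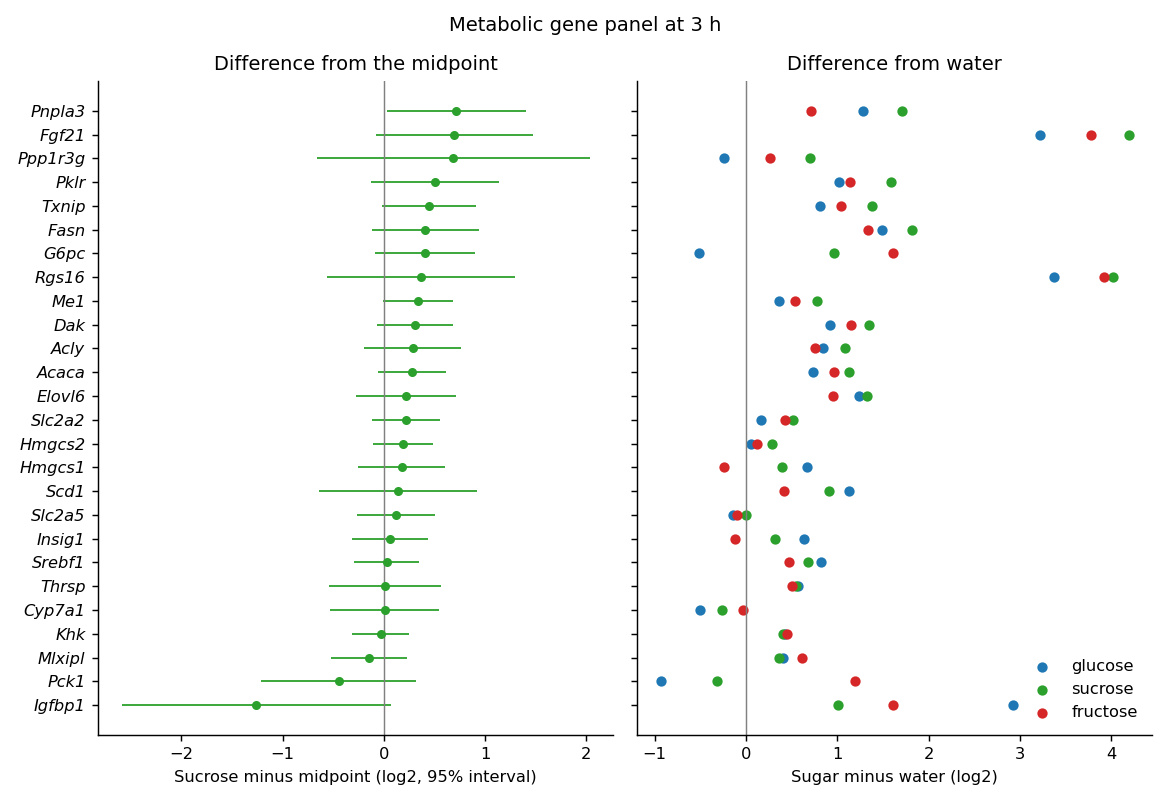
Left, log2 difference of sucrose from the midpoint at 3 h for 26 of the 28 panel genes with 95% intervals; right, log2 difference of each sugar from water. Points for 22 genes lie above 0 on the left, and 1 interval, that of Pnpla3, excludes 0 on that side. The highest C57BL6/J sucrose library of Pnpla3 had 35.4 CPM and the next 10.2.

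Of the panel genes shown, Pnpla3, Fgf21 and Ppp1r3g lay farthest above the midpoint and Igfbp1 farthest below. Fgf21, the hepatokine that carbohydrate induces in liver, had 2.02, 3.52, 5.29, 7.93 and 13.7 CPM with glucose, 5.31, 8.96, 11.0, 13.5 and 24.4 with sucrose and 1.35, 5.61, 7.19, 8.03 and 13.8 with fructose in C57BL6/J. In BALB/c it had 1.44, 4.83, 7.80, 11.5 and 23.9 CPM with glucose, 12.2, 13.6, 16.4, 17.8 and 38.6 with sucrose and 0.331, 7.12, 14.2, 24.3 and 50.6 with fructose. All groups overlapped, and the C57BL6/J water libraries held at most 0.663 CPM. Sucrose lay 0.70 ± 0.39 above the midpoint in log2 (95% interval -0.08 to 1.47, unadjusted p 0.0707, adjusted p 0.952 by edgeR). Against water the log2 differences were 3.22 for glucose, 4.19 for sucrose and 3.77 for fructose, and all 3 passed edgeR's test.

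Pklr, the liver pyruvate kinase and a classic ChREBP target, had 157, 163, 194, 347 and 355 CPM with glucose, 291, 308, 317, 337 and 362 with sucrose and 154, 173, 224, 293 and 449 with fructose in C57BL6/J. In BALB/c the ranges were 28.3 to 228 CPM with glucose, 170 to 312 with sucrose and 24.0 to 287 with fructose. All 10 sucrose libraries were above the midpoint of their strain, and all 3 sugars overlapped in both strains. The log2 difference was 0.50 ± 0.32 (95% interval -0.13 to 1.14). Txnip, an inhibitor of glucose uptake and another ChREBP target, lay 0.45 ± 0.23 above the midpoint (unadjusted p 0.0555, adjusted p 0.952 by edgeR). Its highest value, 346 CPM, was in C57BL6/J glucose replicate 1, and without that library the difference was 0.65. Pnpla3, a lipid droplet acyltransferase and lipase raised by SREBP1c and ChREBP, lay 0.71 ± 0.35 above (unadjusted p 0.0371, adjusted p 0.952 by edgeR). Its highest C57BL6/J sucrose library had 35.4 CPM and the next 10.2. Only 6 of the 10 sucrose libraries were above the midpoint of their strain, and 4 were above its glucose mean. Klf10, a sugar-responsive repressor on the ChREBP list but not in the panel, lay 0.61 ± 0.26 above (unadjusted p 0.0183, adjusted p 0.952 by edgeR). Ppp1r3g, a subunit that directs protein phosphatase 1 to glycogen, lay 0.69 ± 0.68 above (95% interval -0.66 to 2.04) at a mean of only 0.526 CPM.

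Igfbp1, an insulin-repressed binding protein for insulin-like growth factors, was at -1.26 ± 0.67 from the midpoint (95% interval -2.59 to 0.07, unadjusted p 0.0741, adjusted p 0.952 by edgeR). In C57BL6/J it had 1.01, 1.87, 2.45, 4.36 and 735 CPM with glucose, 1.41 to 25.4 with sucrose and 3.74 to 12.2 with fructose. In BALB/c it ran from 0.783 to 2.23 CPM with glucose, from 1.33 to 2.52 with sucrose and from 0.875 to 18.2 with fructose. The highest value belonged to C57BL6/J glucose replicate 1, and without that library the difference from the midpoint was 0.23.

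Over the 16 tested ChREBP targets the median difference from the midpoint was 0.17, against 0.00 over all genes. Of these, 12 lay above 0, 10 above both sugars and 4 below both, and edgeR called 0, with 2 at an unadjusted p under 0.05. Without C57BL6/J glucose replicate 1 the median was 0.27. Mlxipl itself was at -0.15. The 21 genes of fatty acid synthesis had a median of 0.14 with 17 above 0, among them Fasn, the fatty acid synthase, at 0.41 ± 0.27 and the acetyl-CoA carboxylase Acaca at 0.28 ± 0.17. Thrsp, Srebf1 and Scd1 were at 0.02, 0.03 and 0.14. Against water edgeR called 3 ChREBP targets higher for glucose, 10 for sucrose and 9 for fructose, and 4, 9 and 4 genes of fatty acid synthesis. Over all genes the shares called higher were 0.166%, 1.65% and 3.37%.

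Of 11 tested genes of fructose uptake and breakdown edgeR called 0 between fructose and glucose, against 2.35% of all genes, and their median difference of sucrose from the midpoint was 0.02 with 6 above 0. Ketohexokinase (Khk) had 579 to 1120.4 CPM with sucrose, 733 to 1148 with glucose and 609 to 1129.7 with fructose in C57BL6/J. Its difference from the midpoint was -0.03 ± 0.14 (95% interval -0.31 to 0.25). The triokinase Dak, which phosphorylates glyceraldehyde from fructose, lay 0.31 ± 0.19 above the midpoint (95% interval -0.07 to 0.68). Against water, Dak was 1.34 higher with sucrose in log2, with an adjusted p of 1.91e-05 by edgeR. Calls above water in this list were not limited to sucrose. Of the 11 genes edgeR called 1 higher for glucose, 2 for sucrose and 2 for fructose, beside 0.166%, 1.65% and 3.37% of all genes.

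Some genes of ribosome biogenesis, which process and modify ribosomal RNA in the nucleolus, were also lower with fructose. Of 24 tested members edgeR called 5 lower with fructose than with glucose, against 1.27% of all genes, and 0 higher: Nop2, Nop58, Dkc1, Gar1 and Rrp9. The count was 1 without the 6 libraries nearer another time and 4 without C57BL6/J glucose replicate 1. Sucrose lay between both sugars for 19 of the 24, against 37.4% of all genes. The list's median log2 difference of fructose from glucose was -0.27, against -0.0027 over all genes. A sucrose mean inside that wider gap is partly fixed by the gap. The interval of its difference from the midpoint lay inside a 1.5-fold change for 24 of 24. The shares were 62.1% of all genes and 92.7% of those with a mean of at least 10 CPM. Rrp9 had 15.5, 15.7, 17.3, 17.4 and 21.5 CPM with glucose, 11.3, 12.1, 13.0, 14.1 and 15.2 with sucrose and 11.0, 11.2, 12.4, 13.1 and 14.4 with fructose in C57BL6/J. In BALB/c it ran from 15.4 to 19.5 CPM with glucose, from 11.3 to 14.7 with sucrose and from 10.4 to 13.7 with fructose. Rrp9 was named after its values were seen. Among the 5 called genes it alone had sucrose libraries that did not overlap glucose in either strain. Even so, its log2 difference of -0.41 ± 0.12 from glucose had an adjusted p of 0.153 by edgeR. Against fructose the groups overlapped. Fructose was at -0.51 ± 0.12 from glucose, with an adjusted p of 0.00858 by edgeR.

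The other pathway lists stayed close to 0, and the 23 medians ranged from -0.42 to 0.17. All 20 tested genes of the unfolded protein response, the programme that raises folding capacity of the endoplasmic reticulum, lay above the midpoint, 15 of them above both sugars, but the differences were small. They ran from 0.01 for Xbp1 to 0.34 for Ero1lb with a median of 0.14, and the chaperone Hspa5 was at 0.19. EdgeR called 0, with 1 at an unadjusted p under 0.05, and at 6 h the median was -0.06 with 5 of 20 above 0. The 23 genes of amino acid catabolism and the urea cycle had a median of -0.14, with 4 above 0 and 16 below both sugars. Serine dehydratase (Sds) was at -0.54 and the alanine aminotransferase Gpt at -0.22, while the urea cycle entry enzyme Cps1 was at 0.08. At 6 h the median was -0.01 with 11 of 23 above 0. Several lists of markers of other cells also lay off the midpoint: 11 of 12 exocrine pancreas genes, with a median of 0.85, 10 of 10 stellate and fibroblast genes, with a median of 0.13, and 7 of 7 cholangiocyte genes, with a median of 0.18, were above it. All 6 erythroid genes were below it and below both sugars, with a median of -0.27. The 6 neutrophil genes had a median of -0.56 with 2 above it, and of 0.06 with 4 above without C57BL6/J glucose replicate 1. All 13 mitochondrially encoded genes were below it, with a median of -0.23. Summed levels did not all follow. The median over the 10 sucrose libraries was below those of glucose and fructose for exocrine pancreas (27.2 CPM) and cholangiocyte markers (53.5 CPM). It lay between them for stellate and fibroblast markers (295.8 CPM) and the mitochondrial percentage (4.81). For erythroid and neutrophil markers it was below both. The highest sucrose sums were 91.3 CPM for exocrine pancreas (BALB/c replicate 2) and 112.5 for cholangiocyte (BALB/c replicate 1). The part of these lists in the results was not tested.

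**Figure D4:**
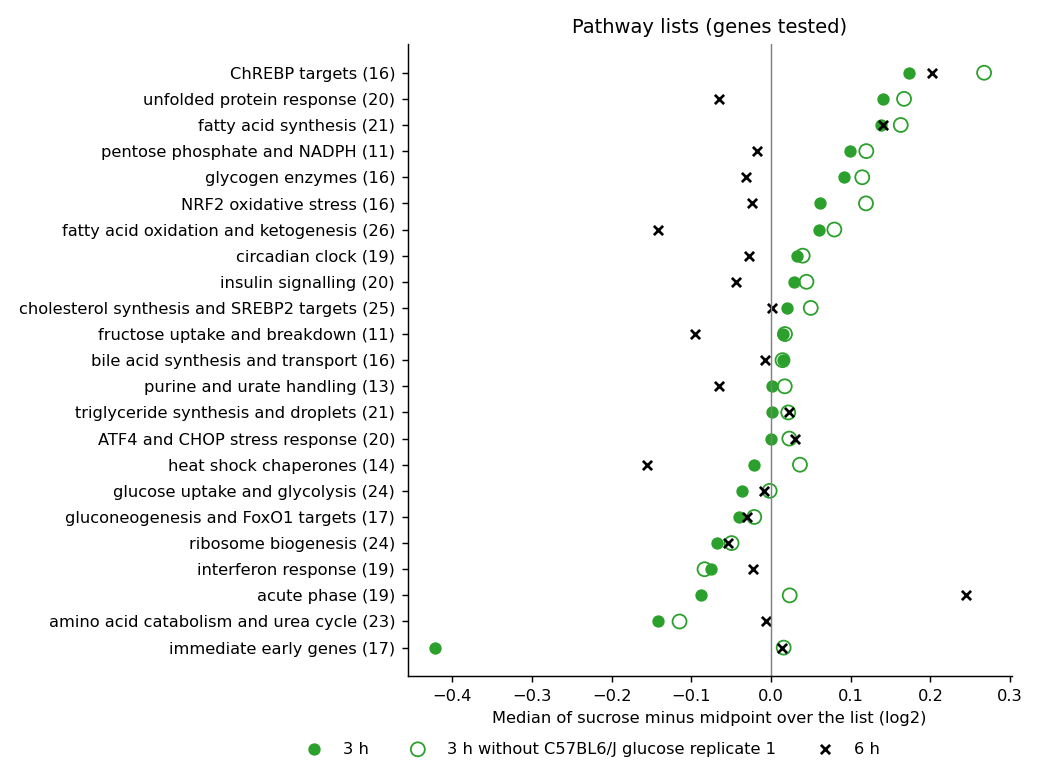
Median log2 difference of sucrose from the midpoint for 23 pathway lists at 3 h, at 3 h without C57BL6/J glucose replicate 1 and at 6 h, with the number of tested genes in brackets. ChREBP targets have the highest 3 h median, 0.17, and immediate early genes the lowest, -0.42, which is 0.02 without that library.

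The lowest list median was set by a single glucose library. The 17 immediate early genes, which respond within minutes to stress or growth signals and many of which encode transcription factors, had a median of -0.42 with 1 above 0. Without C57BL6/J glucose replicate 1 the median was 0.02 over 16 tested genes with 8 above 0. That library had 556 CPM of Egr1, against 0.624 to 17.7 in the other 29. It had 399 CPM of Nfkbiz, an inducible regulator of NF-kappaB (8.67 to 45.3) and 438 of the chemokine Cxcl10 (0.110 to 14.3). The summed neutrophil markers were 52.9 CPM there and 1.65 to 11.2 in the other 29, and their part in the result was not tested. With all libraries, Egr1 was at -3.34 with sucrose and at -3.90 with fructose against glucose in log2; without this library the values were -0.57 and -1.13. The adhesion molecule Icam1 moved from -1.16 and -1.24 to 0.18 and 0.10. These genes were named after their values were seen. Without the library edgeR called 17 genes between sucrose and glucose, 16 of them among the 36, and 338 between fructose and glucose, 284 of them among the 396.

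The genes with the smallest p against the midpoint were mostly low in level. Xist, at 3.97 ± 0.71 (adjusted p 0.288 by edgeR), had its counts almost wholly in BALB/c sucrose replicate 5. Smpd3, a neutral sphingomyelinase, was at 1.39 ± 0.35 (adjusted p 0.656 by edgeR), and its BALB/c sucrose libraries had 0.574, 0.594, 0.795, 2.82 and 13.7 CPM, so that 1 library held most of its counts. Sema3c, Gpm6a, Ogn and Itga8 were at 0.73, 0.69, 0.52 and 0.43. Arhgap26 was at -0.40 and Parp16 at -0.33, and the immunoglobulin light chain Igkc at -1.13, with levels of 0.635 to 23.9 CPM. None passed edgeR's test.

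The departure from the midpoint differed between BALB/c and C57BL6/J for 1 gene of 16886 (0.00592%) by edgeR, Xist, at 8.79 ± 1.41 (adjusted p 0.000405), a gene high in 1 library. Beside it, 196 genes had an unadjusted p under 0.05 and DESeq2 called 6. Within C57BL6/J alone 0 genes were called by edgeR, with 309 at an unadjusted p under 0.05. Within BALB/c alone 1 was called (0.00592%), again Xist, with 437. The difference between fructose and glucose itself was called for 213 genes in C57BL6/J (1.26%) and 3 in BALB/c (0.0178%), while its strain difference was called for 4 genes (0.0237%).

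Over the same 396 genes the distance between fructose and glucose was smaller at later times. These genes were chosen for their separation at 3 h, so a smaller distance at another time is partly fixed by that choice. The score over the 396 genes separated fructose from glucose by 1.57 log2 units in C57BL6/J and 1.11 in BALB/c at 3 h, with sucrose at 0.995 ± 0.155 and 0.714 ± 0.0979 (SD, n = 5 each). At 6 h fructose stood 0.178 and 0.342 above glucose, and sucrose at 0.159 ± 0.394 and 0.107 ± 0.241 (SD, n = 5 each), where the C57BL6/J SD exceeded the distance between both sugars. At 12 h fructose stood at 0.0315 and -0.0180. The sign of fructose against glucose was that of 3 h for 256 of the 396 at 6 h and for 178 at 12 h. Between fructose and glucose edgeR called 43 genes at 6 h (0.255%), 5 of them among the 396, and 0 at 12 h (0%). Over all genes 1750 (10.4%) had an unadjusted p under 0.05 at 6 h, against 2148 (12.7%) at 3 h and 406 (2.4%) at 12 h. Against the midpoint at 6 h edgeR called 0 genes (0%), with 387 (2.29%) at an unadjusted p under 0.05 and 1 called by DESeq2, Pcsk1n. At 12 h it called 0, with 325 at an unadjusted p under 0.05. The change from 3 h to 6 h was called for 0 genes by edgeR, with 637 at an unadjusted p under 0.05 and 2 by DESeq2.

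**Figure D5:**
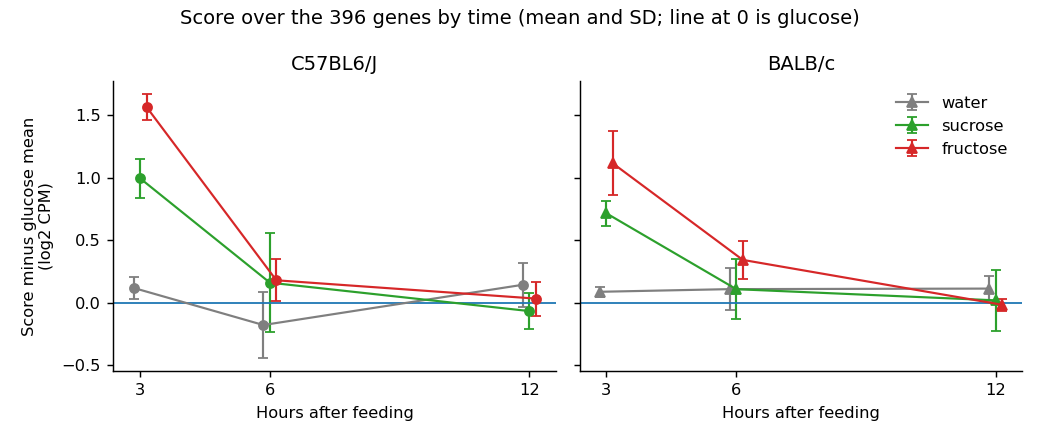
Score over the 396 genes minus the glucose mean of the same strain and time, in log2 CPM, at 3, 6 and 12 h; points are means and bars the SD over libraries. Fructose stands 1.57 and 1.11 above glucose at 3 h and at most 0.342 above it at 6 h and 12 h.

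At 6 h 24 of the 28 panel genes lay above the midpoint, in other libraries than those at 3 h, beside 8047 of 16886 genes. The panel and the lists were chosen with earlier results of these data known. Their genes can move together, so these counts are no test of those at 3 h. Fgf21 was at 0.75 ± 0.40 (unadjusted p 0.0602) and Fasn at 0.57 (unadjusted p 0.0298), neither of which passed edgeR's test. The medians of ChREBP targets and of fatty acid synthesis were 0.20, with 14 of 16 above 0, and 0.14, with 18 of 21 above 0.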

How the data were processed

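Liver RNA was sequenced as 150 bp paired reads. The authors deposited raw counts of reads for each of 35275 genes, 8695 of them without a read, and these counts were used; their FPKM values were not. Per the submitters' processing notes, the tools were CASAVA, STAR 2.5, HTSeq 0.6.1 and DESeq2 and the build mm10 (GRCm38), with no role stated. The strand setting of the counting is not known from the sources, so overlapping genes and close paralogs such as Actb and Actg1 carry uncertain counts.

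In R 4.3.3, genes were filtered with filterByExpr over the 26 groups of strain, drink and time, which left 16886, and scaled by TMM. edgeR 4.0.16 fitted 1 mean per group to all libraries, so that groups share the estimate of spread, and contrasts were tested by quasi-likelihood with Benjamini-Hochberg adjustment at 0.05. Log2 CPM used a prior count of 1. Standard errors come from the fitted model; 509 genes without one have no interval. The midpoint test was run on simulated counts of 30 libraries alone, without differences of strain or between glucose and fructose. That setting differs from the fit to all libraries. Total counts were 19840501 to 30854950 in the 30 libraries.

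The compared groups, the panel of 28 genes and the 40 gene lists (589 entries, 577 tested) were chosen with earlier results of these data known. Genes named are the panel, the 10 smallest p against the midpoint with a mean of at least 1 CPM, the 5 smallest in the strain and time tests and list members by smallest p. Others were chosen after their values were seen, and this is not said beside each of them. Alternatives were RLE size factors, DESeq2 1.42.0, no filter, replicate block, name suffix as covariate or left out, smaller fits and each replicate left out. Some genes these rules choose are not reported here.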

Additional observations from a re-analysis of the deposited data

Results flagged for a closer look

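In 150 groups of 5 libraries, 31 had a highest or lowest library set off from the rest. The gap was over 0.71 of the group's range (Dixon's limit), which chance gives in about 1 in 20 groups of normally distributed values. CPM need not be so distributed, and many of the genes were named after their values were seen. The 31 can therefore not be set against that rate. C57BL6/J glucose replicate 1 was the highest of its group for Egr1 at 556.1, Cxcl10 at 437.5, Nfkbiz at 398.7, Icam1 at 218.2, Atf3 at 43.4 and Pck1 at 738.7 CPM. Its neutrophil sum was 52.9 CPM, and its position of -0.266 was the lowest. BALB/c sucrose had single high libraries for Xist at 1146 CPM, G6pc at 530.5, Ulk1 at 118.3, Sqle at 42.6, Fgf21 at 38.6, Smpd3 at 13.7 and Icam1 at 7.50.

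C57BL6/J sucrose had single high libraries for Ulk1 at 126.2, Nfkbiz at 45.3, Pnpla3 at 35.4, Egr1 at 16.5 and Cxcl10 at 14.3 CPM. BALB/c glucose had them for Pck1 at 460.7, Hmgcs1 at 301.4, G6pc at 249.6 and Egr1 at 17.7 CPM. C57BL6/J fructose had them for Pck1 at 1448, Hmgcs1 at 254.5, Cdk19 at 13.8 and Egr1 at 6.82 CPM, and BALB/c fructose for Fbxl20 at 32.6 and Nfkbiz at 26.5 CPM. Xist reached 1.22 CPM in 1 C57BL6/J glucose library. The departure of sucrose from the midpoint differed between the strains by edgeR's interaction test for Xist, by 8.79 in log2.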

How the results depend on the processing

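The count of 0 against the midpoint was also 0 with RLE size factors, no filter, the name suffix as covariate or left out, and fits to the 30 or 40 libraries of 3 h. It was 3 with DESeq2 and 0 to 1 with any replicate left out (Smpd3 without replicate 4, Xist without a BALB/c sucrose library). The 36 calls between sucrose and glucose became 15 with no filter, 7 without the suffixed libraries, 66 with DESeq2 and 0 to 35 with any replicate left out. The 396 calls between fructose and glucose became 259 with no filter, 99 without the suffixed libraries, 544 with DESeq2, 579 with the suffix as covariate, 522 with the 30 and 532 with the 40 libraries of 3 h, and 102 to 338 with any replicate left out. Sucrose against fructose gave 7 calls with DESeq2 and 0 to 1 with any replicate left out. The 1 strain difference was 0 without the suffixed libraries, with the 30 libraries and with the 40 libraries, 6 with DESeq2 and 0 to 1 with any replicate left out. DESeq2 gave 1 call against the midpoint at 6 h and 2 for the change from 3 h to 6 h. Causes of these changes were not tested, beyond fewer libraries or more genes in the fit.

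The suffix, whose meaning is not given, marks 34 libraries of the series. Same-numbered libraries deviated together with a mean correlation of 0.0892 (-0.327 to 0.415), against -0.0215 for other numbers, and 15 of 30 libraries correlated best with their own number. The labels give no pairing, so the main fit has no term for the number, and the cause of these correlations was not tested. With the replicate block the calls were 0 against the midpoint, 53 for sucrose and 550 for fructose against glucose.

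Chosen after seeing the data were 3 further sets. Without the 6 libraries nearer another time, the calls were 10 for sucrose against glucose, 248 for fructose against glucose and 0 for strain. Leaving out both C57BL6/J glucose replicate 1 and BALB/c sucrose replicate 5, they were 13, 323 and 0. The mean position of the sucrose libraries, 0.638, was 0.731 with genes chosen in C57BL6/J and read in BALB/c. Of 91 gene results 16 changed sign in some setting. Icam1 changed sign: sucrose against glucose was between -1.42 and 0.18 with any replicate left out (0.17 without replicate 1), 0.18 without C57BL6/J glucose replicate 1 and 0.16 without both libraries, and fructose against glucose between -1.43 and 0.10 with any replicate left out, and 0.06, 0.10 and 0.10 in the same settings. In the same 3 settings Cxcl10 (sucrose against glucose), Igfbp1 and Ripk2 (against the midpoint) also did. Against the midpoint so did Cyp7a1 in 12 settings of 27, Thrsp in 7, Srebf1 in 6, Scd1 and Xist in 4, Insig1 and Khk in 3, Mlxipl and Sftpc in 2 and Rgs16 in 1, and Sqle against glucose in 1 of 16.

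Of the gene values against the midpoint, 1431 under the alternatives stayed within their bounds, 47 moved and 5 passed the threshold. Depth limits genes of a few CPM, whose intervals are wide.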

Other observations

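Among list members with the smallest p against the midpoint, 2 are set down here as values. Gsta1, a glutathione transferase of detoxification, had 2.58 to 4.38 CPM with sucrose, 4.68 to 11.5 with glucose and 2.24 to 10.6 with fructose in C57BL6/J. In BALB/c it had 2.58 to 4.70 CPM with sucrose, 5.42 to 28.2 with glucose and 1.82 to 21.4 with fructose. All 10 sucrose libraries were below every glucose library of their strain, and the difference from the midpoint was -1.05 ± 0.36 in log2 (unadjusted p 0.00518, adjusted p 0.952 by edgeR). The same values chose the gene, so its gap to glucose is no separate support. EdgeR called 0 genes of its list, NRF2 oxidative stress, between sucrose and glucose.

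Bhlhe40, a transcriptional repressor of the circadian clock, had 160.0 to 244 CPM with sucrose, 104 to 212 with glucose and 90.3 to 317 with fructose in C57BL6/J. In BALB/c it had 139.8 to 224 CPM with sucrose, 58.8 to 176 with glucose and 66.8 to 191 with fructose. The groups overlapped, and sucrose lay 0.46 ± 0.17 above the midpoint (unadjusted p 0.00891, adjusted p 0.952 by edgeR).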
